A study of Mus musculus with 20 samples.

Results

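The genes described here encode subunits of the neuronal nicotinic acetylcholine receptor: Chrna2, Chrna3, Chrna4, Chrna5, Chrna6, Chrna7, Chrna10, Chrnb2, Chrnb3 and Chrnb4. They are 10 of the 20972 gene symbols with a probe on the array, and each is read by 1 probe, found by matching the RefSeq accession that names the probe to the gene. The set was chosen by the measured difference of Chrna2 between Tat-/Meth mice and the other groups, so every value of Chrna2 that involves Tat-/Meth is a description without a test. The other 9 genes were taken by family name.

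The arrays were hybridized with brain RNA from 20 male mice on a C57BL/6J background, 5 in each of 4 groups. All mice carried a transgene for a Tet-binding protein under the promoter of Gfap, an astrocyte gene, and all were injected with doxycycline at 100 mg/kg on 7 days. Tat+ mice also carried the TRE-Tat86 transgene, in which a Tet-responsive promoter drives the HIV-1 protein Tat, so that Tat is made in the cells in which the Gfap promoter is active, and Tat- mice lacked it. Meth mice were injected with methamphetamine at 2 mg/kg on 7 days and Sal mice with 0.9% saline. Each group is named by its transgene, Tat+ or Tat-, followed by its treatment, Meth or Sal. The sample descriptions give the left hemisphere, an age of 6 to 7 weeks and tissue taken 24 h after the last injection. The methods of the study instead describe the caudate putamen of mice aged 3 to 5 months, taken 1 h after a challenge of 1 mg/kg methamphetamine that every mouse received after 7 days of abstinence. Which account holds for these arrays was not settled here.

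Nicotinic receptors are ligand-gated cation channels built as a ring of subunits around a pore, and acetylcholine binds at the faces between subunits. The subunits encoded by Chrna4 and Chrnb2 make up the most widespread heteromeric receptor of the brain, and that of Chrna7 forms receptors from copies of itself. The subunits of Chrna6 and Chrnb3 are known from midbrain dopamine neurons, whose axons fill the striatum, and those of Chrna3, Chrna5 and Chrnb4 from the medial habenula and autonomic ganglia. Chrna2 has a narrow expression in the rodent brain and is known from somatostatin interneurons of the cortex and hippocampus, while Chrna10 is known from cochlear hair cells. In the genome Chrna5, Chrna3 and Chrnb4 lie next to each other, as do Chrnb3 and Chrna6.

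The promoter windows of 3 subunit genes are shown because these genes moved in opposite directions: with scaling between arrays, Chrna4 and Chrna7 were higher in Tat-/Meth and Chrnb4 was lower (without scaling Chrna7 changed sign). Chrna2 and Chrna6 were also lower in Tat-/Meth, and no window was available for them. Each line gives the 250 bases before the annotated start in RefSeq (build GRCm38.p6, gene strand, 5′ to 3′), and capitals mark a GC box, GGGCGG read on either strand. The windows lie at chr9:55048545-55048794 for Chrnb4, chr2:181039178-181039427 for Chrna4 and chr7:63212527-63212776 for Chrna7, all on the minus strand.
Chrnb4: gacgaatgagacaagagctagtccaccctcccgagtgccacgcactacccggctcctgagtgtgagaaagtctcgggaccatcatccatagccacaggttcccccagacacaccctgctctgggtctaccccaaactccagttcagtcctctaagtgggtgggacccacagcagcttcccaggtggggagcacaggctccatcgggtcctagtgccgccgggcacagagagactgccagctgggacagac
Chrna4: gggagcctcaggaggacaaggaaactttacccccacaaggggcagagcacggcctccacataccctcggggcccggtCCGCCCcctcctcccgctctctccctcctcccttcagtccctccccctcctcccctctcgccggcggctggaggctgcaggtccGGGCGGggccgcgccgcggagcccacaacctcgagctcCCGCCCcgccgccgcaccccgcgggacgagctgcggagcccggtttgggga
Chrna7: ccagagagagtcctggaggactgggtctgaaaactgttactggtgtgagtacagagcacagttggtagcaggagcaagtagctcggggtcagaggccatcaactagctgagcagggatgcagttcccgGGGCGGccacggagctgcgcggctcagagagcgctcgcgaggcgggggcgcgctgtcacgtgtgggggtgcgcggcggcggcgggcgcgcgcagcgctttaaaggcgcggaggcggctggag
The window of Chrnb4 had 0 GC boxes, that of Chrna4 had 3, the outermost beginning 173 and 51 bases before the start, and that of Chrna7 had 1. The window of Chrnb2, which is not shown, had 0 as well. After scaling Chrnb2 was higher in Tat-/Meth than in Tat-/Sal by 0.25, which did not pass in limma (adjusted p = 0.0752). A link between boxes and direction was not tested. The GC content was 61.2% for Chrnb4, 74.4% for Chrna4 and 67.2% for Chrna7. A GC box stood in 32.7% of the 32851 windows of the same length in the table and in 4 of the 8 windows of the subunit genes, of which 7 of 10 had a window and Chrna5 had more than 1. A TATA box (TATAAA, either strand) stood in 12.4% of all windows and in 0 of the 8. A match of letters is a description, not a binding site.

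Values below are log2 signals, brought to a common 75th percentile over the arrays, and a difference of 1 is a 2-fold change. A signal was counted as detected on an array when the scanner software marked it well above background. A probe was tested when its mean reached 6 in at least 1 group, which 31516 probes did, and a difference passed the test at a Benjamini-Hochberg adjusted p under 0.05 over all of them in limma. Levels are compared between groups within a gene, never between genes. The RNA is from bulk tissue, so fewer cells of a type and less RNA per cell cannot be told apart.

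The 5 Tat-/Meth arrays made up slide 1 and no other group was on it, so the group and the slide cannot be told apart. Slide 2 held the 5 Tat-/Sal arrays with Tat+/Meth arrays 1 to 3, and slide 3 held Tat+/Meth arrays 4 and 5 with the 5 Tat+/Sal arrays. Before scaling, the bright corner control spots read from 14.67 to 15.06 on slide 1 but from 16.79 to 17.44 on slides 2 and 3. After scaling, 10 spike-in controls differed by -0.96 to 0.71 between slide 1 and the others. The control at signals of 6.13 to 8.06 was higher on slide 1 by 0.71, and that at 9.3 to 10.4 by 0.66. Those at 10.38 to 11.25 and 12.48 to 13.23 differed by 0 and 0.36. Lower on slide 1 were the controls at 16.72 to 18.29 (-0.96) and 18.55 to 19.21 (-0.26). How far such shifts enter the subunit differences was not tested. Between 55.3 and 70.9% of an array's probes were detected, with the highest share on Tat-/Meth array 5. That array was also the highest of its group for 9 of the 10 subunit probes, against 58.7% of all probes on the array.

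Of the 10 subunit genes, 6 had enough signal to be tested: Chrna2, Chrna4, Chrna6, Chrna7, Chrnb2 and Chrnb4. The probes of Chrna3 and Chrnb3 were well above background on 0 of 20 arrays, and that of Chrna5 on 1 array, of the Tat+/Meth group. Chrna10 was detected on 3 Tat-/Meth, 2 Tat-/Sal, 2 Tat+/Meth and 0 Tat+/Sal arrays, and its group ranges overlapped (4.23 to 6.64, 4.37 to 5.38, 3.97 to 7.18 and 3.61 to 5.7). These 4 genes were below the signal limit and were not tested. With another background correction (normexp with an offset of 50), probes below background enter the fit. Under it 53.2% of all probes passed in Tat-/Meth vs Tat-/Sal, with lower and higher ones both counted. All 4 of these genes passed there as higher in Tat-/Meth, at 0.7 for Chrna3, 0.38 for Chrna5, 0.56 for Chrna10 and 0.64 for Chrnb3. Their adjusted p in limma was 0.0015, 0.0165, 0.0285 and 0.0113. With the usual background and no signal limit, the same differences were 0.96, 0.11, 0.64 and 0.91 and 0 of the 4 passed (adjusted p = 0.11, 0.819, 0.405 and 0.141). The signals of Chrna3 lay between 2.15 and 5.73, those of Chrna5 between 2.45 and 5.01 and those of Chrnb3 between 2.11 and 4.92. The 6 remaining genes of the family were not tested either. They are Chrna1, Chrnb1, Chrnd, Chrne and Chrng, which build the muscle receptor, and Chrna9, the partner of Chrna10, and each was detected on 0 to 2 of 5 arrays in any group.

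**Figure D1:**
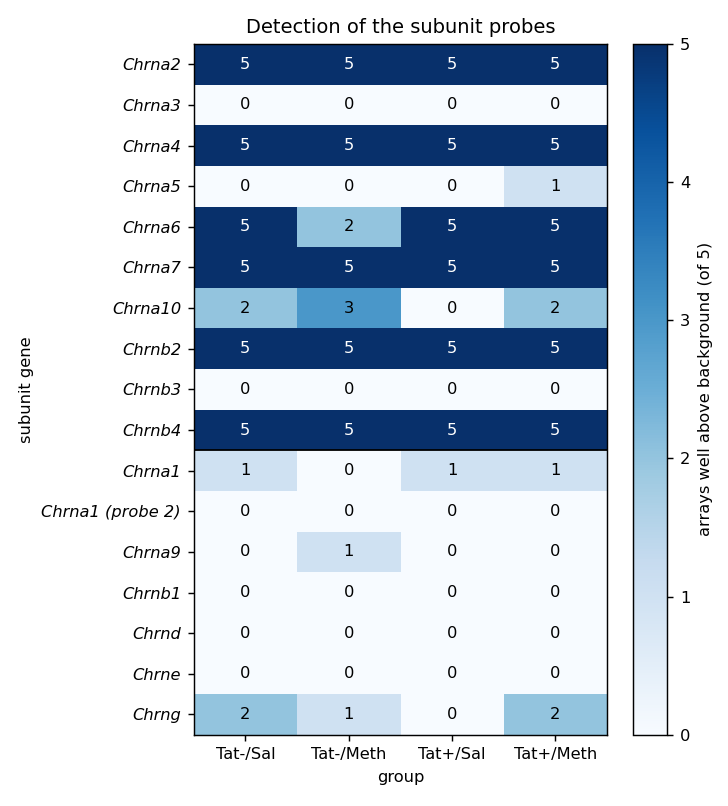
Number of arrays, of 5 in each group, on which the probe of each subunit gene was well above background (colour scale and printed number). The 10 genes described here stand above the line and the other genes of the family below it. Chrna2, Chrna4, Chrna7, Chrnb2 and Chrnb4 were detected on 5 arrays of every group, and Chrna6 on 2 in Tat-/Meth and 5 elsewhere.

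Chrna2 had the largest difference of the family. Its signal was 12.48, 12.75, 12.88, 12.69 and 13.05 on the Tat-/Sal arrays and 8.14, 8.58, 8.38, 8.28 and 8.75 on the Tat-/Meth arrays. It was 13.04, 12.53, 12.65, 14.23 and 13.79 on the Tat+/Sal arrays and 13.2, 13.24, 12.97, 13.58 and 13.37 on the Tat+/Meth arrays. The Tat-/Meth values lay below every other array without overlap, and the other 3 groups overlapped. All 20 values were well above background and 0 were saturated. The mean in Tat-/Meth was lower than in Tat-/Sal by 20.3-fold (log2 difference -4.34 ± 0.25 SE), which placed the probe 63rd among 31516 in order of decrease. Against Tat+/Meth it was lower by 28.8-fold (4.85 ± 0.25 for Tat+/Meth less Tat-/Meth), the 47th largest increase. The interaction, that is the effect of Meth under Tat+ minus its effect under Tat-, was 4.37 ± 0.35. Adjusted p under 0.05 with a decrease over 2-fold was reached by 10.9% of all probes in Tat-/Meth vs Tat-/Sal, and with an increase over 2-fold by 11.3% in Tat+/Meth vs Tat-/Meth. These differences chose the gene and are therefore given without a test. Without scaling between arrays the difference from Tat-/Sal was -4.76.

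In the comparisons that hold no Tat-/Meth array Chrna2 did not pass the test. Tat+/Meth and Tat+/Sal differed by 0.02 (95% interval -0.5 to 0.55, adjusted p = 0.981), and by 0.23 on the slide they share. Tat+/Sal was above Tat-/Sal by 0.48 (-0.05 to 1, adjusted p = 0.348), with arrays 4 and 5 at 14.23 and 13.79 above all Tat-/Sal arrays and the other 3 within their range. Tat+/Meth was above Tat-/Sal by 0.5 (-0.02 to 1.03, adjusted p = 0.778), with 4 of 5 arrays above every Tat-/Sal array. On the slide that Tat+/Meth and Tat-/Sal share, the difference was 0.37.

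**Figure D2:**
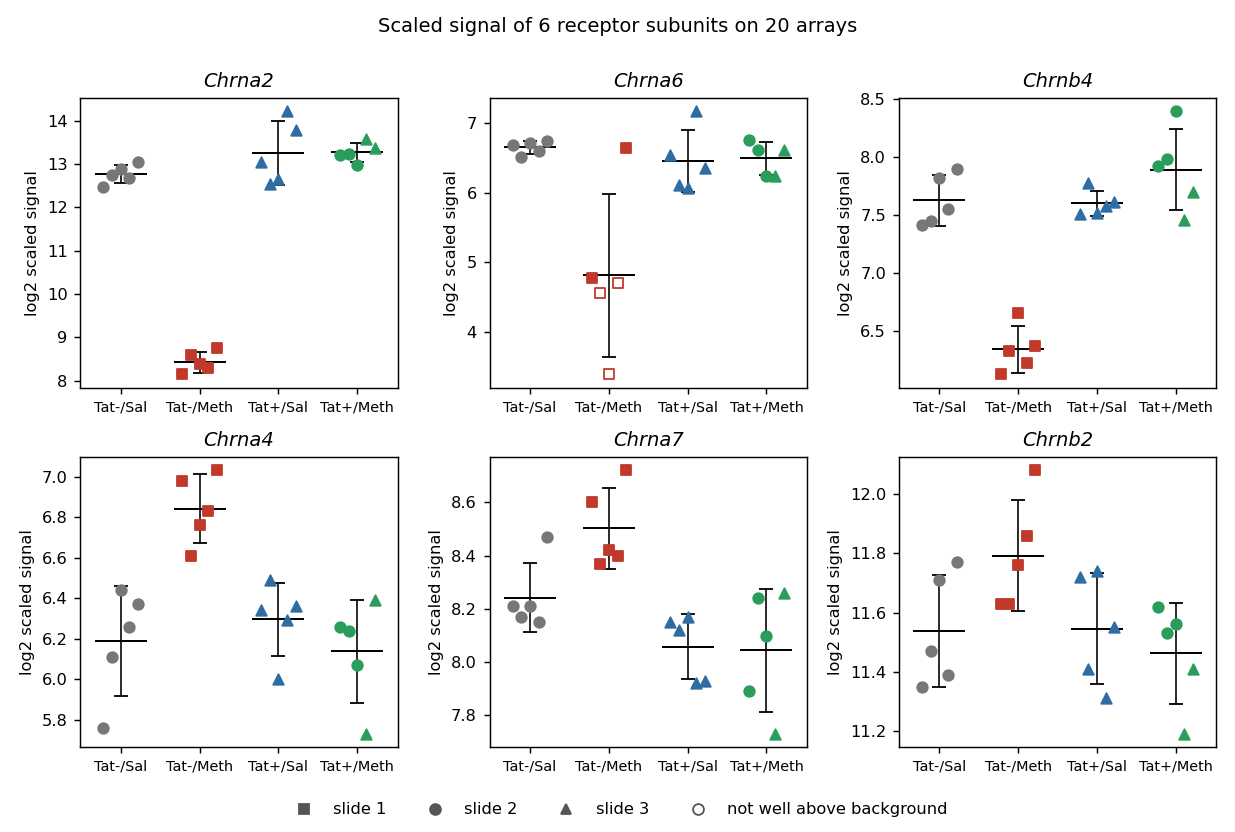
Log2 scaled signal of the 6 tested subunit genes by group, 1 point for each array, with the group mean (line) and SD (bar); the marker shape gives the slide and open points were not well above background. Vertical axes differ between panels and do not start at 0. Tat-/Meth lies apart below the other groups for Chrna2 (8.14 to 8.75) and Chrnb4 (6.12 to 6.65), and above them for Chrna4 (6.61 to 7.03).

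The genes whose signal ran most like that of Chrna2 were sought among 15096 other genes, by the mean absolute difference over the 20 arrays after each probe was centred on its own mean. The 5 closest were Elane, an enzyme of neutrophil granules, at 0.09, Sox13, a transcription factor, at 0.1, Bmp1, a metalloprotease that processes procollagen, at 0.12, and the keratin-associated protein genes Krtap5-5 at 0.14 and Krtap10-10 at 0.16. Their log2 differences between Tat-/Meth and Tat-/Sal ranged from -4.7 for Krtap10-10 to -4.28 for Bmp1, beside -4.34 for Chrna2. Their mean signals were high, from 13.68 (Bmp1) to 15.36 (Krtap10-10) in Tat-/Sal, with Elane at 14.39. In Tat-/Meth they were 9.21 (Krtap5-5) to 10.66 (Krtap10-10). Whether these probes and that of Chrna2 read the RNA of the genes they are named for was not tested. All 6 genes were low on the Tat-/Meth arrays, that is on slide 1, and highest on Tat+/Sal array 4. The 5 genes were chosen for closeness to Chrna2 over these same 20 arrays. Their low values in Tat-/Meth therefore follow from the choice and are a description only. The other subunits were farther from Chrna2 than these 5, which are the closest by choice. Chrna6 stood at 1.11, with 404 of the 15096 genes closer, and Chrnb4 at 1.24, with 602 closer. Chrnb2 stood at 1.85 (10066 closer), Chrna7 at 1.9 (12129 closer) and Chrna4 at 1.99 (14485 closer). These distances take in the Tat-/Meth values that chose Chrna2 and are a description too.

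**Figure D3:**
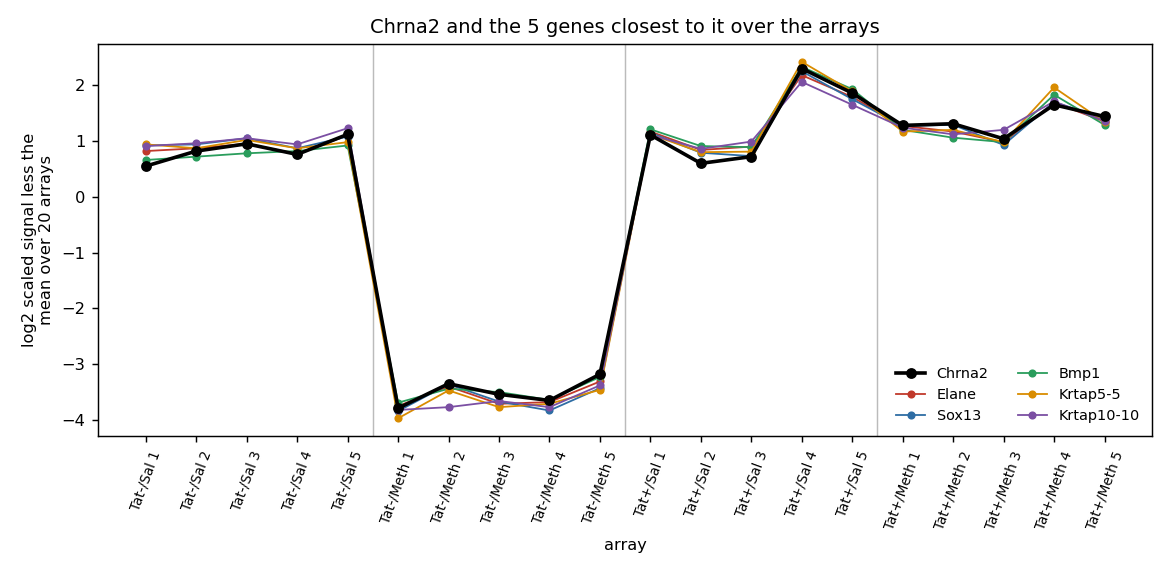
Log2 scaled signal of Chrna2 (black) and of the 5 genes closest to it on each of the 20 arrays, less each gene's own mean over the arrays; vertical lines part the groups. All 6 curves fall together on the Tat-/Meth arrays, with mean absolute differences from Chrna2 of 0.09 to 0.16. This follows from the choice of the 5 genes by closeness over the same arrays.

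In Tat-/Meth vs Tat-/Sal, 4 of the 5 tested subunits other than Chrna2 passed the test: Chrnb4 and Chrna6 fell, and Chrna4 and, after scaling between arrays, Chrna7 rose. Over all probes 50.3% passed in this comparison (22.2% lower and 28.1% higher), so passing was common among all probes. The comparison Tat+/Meth vs Tat-/Meth shares the Tat-/Meth arrays, and in it 5 of the 5 passed, Chrnb4 and Chrna6 higher in Tat+/Meth and Chrna4, Chrna7 and Chrnb2 lower, against 53.5% of all probes (30.3% lower and 23.2% higher). The interaction passed for 3, with Chrna6 and Chrnb4 positive and Chrna4 negative, against 37% of all probes (18.1% negative and 19% positive). Without scaling between arrays the differences of Chrna7 between Tat-/Meth and Tat-/Sal and of Chrnb2 between Tat+/Meth and Tat-/Meth changed sign, and 2 subunits passed in each of the comparisons with Tat-/Meth. Without scaling, the median difference of all probes in Tat-/Meth vs Tat-/Sal was -0.33, against 0.1 with it.

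Chrnb4 fell in Tat-/Meth. Its subunit pairs with that of Chrna3, whose probe was not detected here. The signal was 7.41, 7.45, 7.82, 7.55 and 7.9 in Tat-/Sal and 6.12, 6.32, 6.65, 6.22 and 6.37 in Tat-/Meth. It was 7.51, 7.78, 7.52, 7.58 and 7.61 in Tat+/Sal and 7.92, 7.98, 8.4, 7.46 and 7.7 in Tat+/Meth. All 20 values were well above background, and the 5 Tat-/Meth values lay below all 15 others. The difference from Tat-/Sal was -1.29 ± 0.14 SE (2.45-fold, adjusted p = 7.67e-07) and the Tat+/Meth less Tat-/Meth difference was 1.56 ± 0.14 (2.94-fold, adjusted p = 6.67e-08). The interaction was 1.58 ± 0.2 (adjusted p = 8.7e-06). With the normexp background correction the difference from Tat-/Sal shrank to -0.69, and it passed there too. Within Tat+/Meth the arrays on slide 2 read 7.92 to 8.4 and those on slide 3 read 7.46 to 7.7, without overlap.

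Chrna6 fell in Tat-/Meth as well. The signal was 6.69, 6.51, 6.72, 6.6 and 6.75 in Tat-/Sal and 4.77, 4.56, 3.39, 4.7 and 6.65 in Tat-/Meth, where 2 of the 5 arrays were well above background. It was 6.55, 6.12, 6.07, 7.18 and 6.36 in Tat+/Sal and 6.76, 6.61, 6.25, 6.24 and 6.62 in Tat+/Meth, with all arrays detected. On 4 of 5 Tat-/Meth arrays the signal was below every Tat-/Sal array, and array 5, at 6.65, lay inside the Tat-/Sal range. The fitted difference was -1.84 ± 0.38 SE (3.58-fold, adjusted p = 6e-04), and without array 5 it was -2.3. Tat+/Meth exceeded Tat-/Meth by 1.68 ± 0.38 (adjusted p = 0.00117), and the interaction was 1.88 ± 0.54 (adjusted p = 0.0103). With the normexp background correction the difference from Tat-/Sal was -0.55, which passed, and the interaction was 0.54, which did not (adjusted p = 0.0756, within a range over all alternatives of 3.06e-05 to 0.0756). The partner subunit gene Chrnb3 was well above background on 0 arrays. Of 6 marker genes of dopamine neurons, 3 were well above background on all arrays and En1 and Foxa1 on none. The log2 of their summed signals, in which the brightest markers weigh most, was 12.54 to 12.94 in Tat-/Meth, 12.43 to 12.82 in Tat-/Sal, 12.44 to 12.63 in Tat+/Sal and 12.43 to 12.82 in Tat+/Meth, and the groups overlapped.

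Chrna4 rose in Tat-/Meth. Its signal was 5.76, 6.11, 6.44, 6.26 and 6.37 in Tat-/Sal and 6.98, 6.61, 6.76, 6.83 and 7.03 in Tat-/Meth. It was 6.34, 6.49, 6, 6.29 and 6.36 in Tat+/Sal and 6.26, 6.24, 6.07, 5.73 and 6.39 in Tat+/Meth. The 5 Tat-/Meth values lay above all 15 others, and the other 3 groups overlapped. The difference from Tat-/Sal was 0.65 ± 0.14 SE (1.57-fold, adjusted p = 0.000711), that of Tat+/Meth from Tat-/Meth was -0.7 ± 0.14 (adjusted p = 0.000325) and the interaction was -0.81 ± 0.19 (adjusted p = 0.00312). Without scaling between arrays these were 0.23, -0.36 and -0.32 and none of the 3 passed (adjusted p = 0.202, 0.0506 and 0.214). After scaling, the spike-in control at 6.13 to 8.06, near the signal of Chrna4, was higher on slide 1 by 0.71.

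Chrnb2, the partner of Chrna4, had smaller differences. Its signal was 11.35, 11.47, 11.71, 11.39 and 11.77 in Tat-/Sal and 11.63, 11.63, 11.76, 11.86 and 12.08 in Tat-/Meth. It was 11.72, 11.41, 11.74, 11.31 and 11.55 in Tat+/Sal and 11.62, 11.53, 11.56, 11.19 and 11.41 in Tat+/Meth. Tat-/Meth overlapped with Tat-/Sal and Tat+/Sal and lay just above Tat+/Meth. The difference from Tat-/Sal, 0.25 (95% interval 0.01 to 0.49), did not pass (adjusted p = 0.0752), though it did without Tat-/Sal array 5 (adjusted p = 0.0398). Tat+/Meth differed from Tat-/Meth by -0.33 ± 0.11 SE (adjusted p = 0.0223). That call was lost without Tat-/Meth array 5 (-0.25, adjusted p = 0.0639), without Tat+/Meth array 4 (-0.26, adjusted p = 0.0683) and with quantile normalization (-0.28, adjusted p = 0.052), and the difference was 0.01 without scaling.

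Chrna7 is read by 10 spots on every array, of which 8 to 10 were kept, so that the error between spots of 1 array can be seen. Error that all spots of an array share, such as that of scaling, is not in it. The SD between spots of an array had a median of 0.0695 and ranged from 0.043 to 0.117, while the SD between arrays within groups was 0.165. Its signal was 8.21, 8.17, 8.21, 8.15 and 8.47 in Tat-/Sal and 8.6, 8.37, 8.42, 8.4 and 8.72 in Tat-/Meth. It was 8.15, 8.12, 8.17, 7.92 and 7.93 in Tat+/Sal and 7.89, 8.24, 8.1, 7.73 and 8.26 in Tat+/Meth. Tat-/Meth lay above both Tat+ groups without overlap and overlapped with Tat-/Sal through array 5 of that group. The difference from Tat-/Sal was 0.26 ± 0.1 SE (1.2-fold, adjusted p = 0.0429), and it was -0.16 without scaling. The call was lost without Tat-/Meth array 1 (adjusted p = 0.0911) or 5 (adjusted p = 0.108) and without Tat-/Sal array 1, 2, 3 or 4 (adjusted p = 0.074, 0.0841, 0.0733 and 0.0891). It was also lost with median scaling, without the signal limit and with a trended variance (adjusted p = 0.0726, 0.0811 and 0.0512, within a range over all alternatives of 0.012 to 0.177). Tat+/Meth differed from Tat-/Meth by -0.46 ± 0.1 (adjusted p = 0.00116), a difference of -0.12 without scaling that did not pass (adjusted p = 0.339). The interaction, -0.27 (95% interval -0.58 to 0.03), did not pass (adjusted p = 0.156), but it passed with quantile normalization (-0.42, adjusted p = 0.0356) and was 0.21 without scaling (adjusted p = 0.21).

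**Figure D4:**
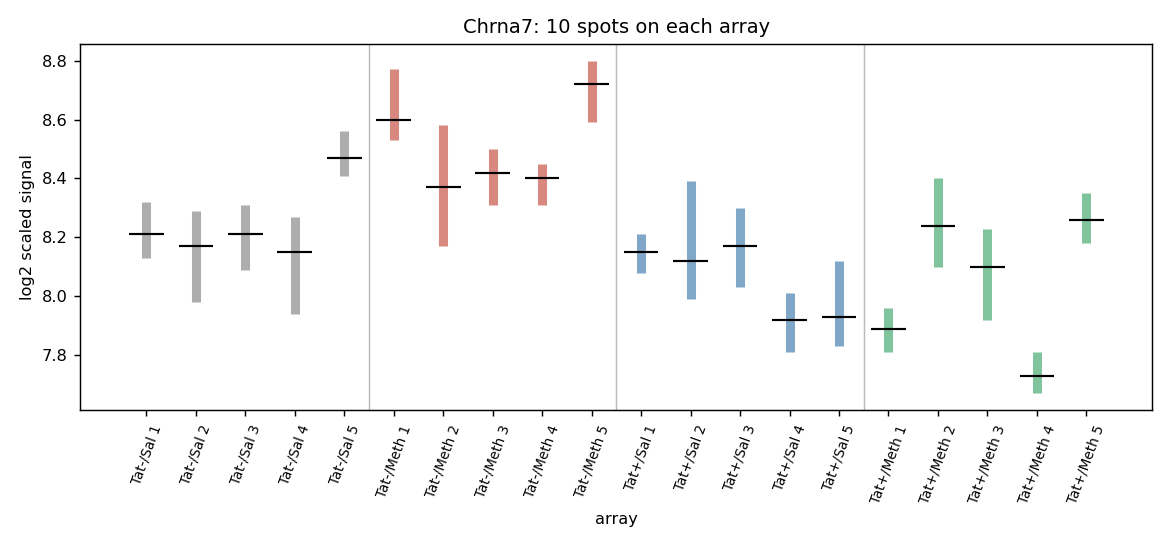
Log2 scaled signal of Chrna7 on each array: the coloured bar runs from the lowest to the highest of the spots kept and the black line is the value used for the array. The axis does not start at 0. The Tat-/Meth values (8.37 to 8.72) lie above those of the other groups, apart from Tat-/Sal array 5 (8.47), which lies among them; without scaling between arrays the difference from Tat-/Sal is -0.16.

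In the comparisons without Tat-/Meth, 0 of 6 tested subunits passed in limma. In Tat+/Meth vs Tat+/Sal 0% of all probes passed either (3624 of 31516 at an unadjusted p under 0.05), in Tat+/Sal vs Tat-/Sal 0.708% did, and in Tat+/Meth vs Tat-/Sal 0.00317% did. At an unadjusted p under 0.05 the limma count of subunits was also 0 in each. The methods' t-test without adjustment counted 1, Chrna2 in Tat+/Meth vs Tat-/Sal. That t-test takes its spread from the groups compared only (SD 0.22 and 0.21), whereas in limma Tat+/Sal, with an SD of 0.74, enters it too. The spread behind the limma intervals also takes in the Tat-/Meth arrays, whose SD for Chrna6 was 1.17, beside 0.1 to 0.45 in the other groups. The widest 95% intervals were those of Chrna6, -0.76 to 0.84 for Tat+/Meth vs Tat+/Sal and -1 to 0.6 for Tat+/Sal vs Tat-/Sal. For Chrna4 they were -0.45 to 0.13 and -0.18 to 0.39, for Chrna7 -0.23 to 0.21 and -0.4 to 0.03, and for Chrnb2 -0.33 to 0.15 and -0.23 to 0.25. For Chrnb4 they were -0.01 to 0.59 and -0.33 to 0.28. The difference of Chrnb4 between Tat+/Meth and Tat-/Sal was 0.26 (adjusted p = 0.78) over all arrays and 0.47 on slide 2, and that between Tat+/Meth and Tat+/Sal was 0.29 (adjusted p = 0.453) over all arrays and -0.02 on slide 3. In order of the group means, Chrna2, Chrna6 and Chrnb4 were lowest in Tat-/Meth and Chrna4 highest, as were, after scaling only, Chrna7 and Chrnb2. The order of the other 3 groups rested on differences that did not pass for any tested subunit.

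**Figure D5:**
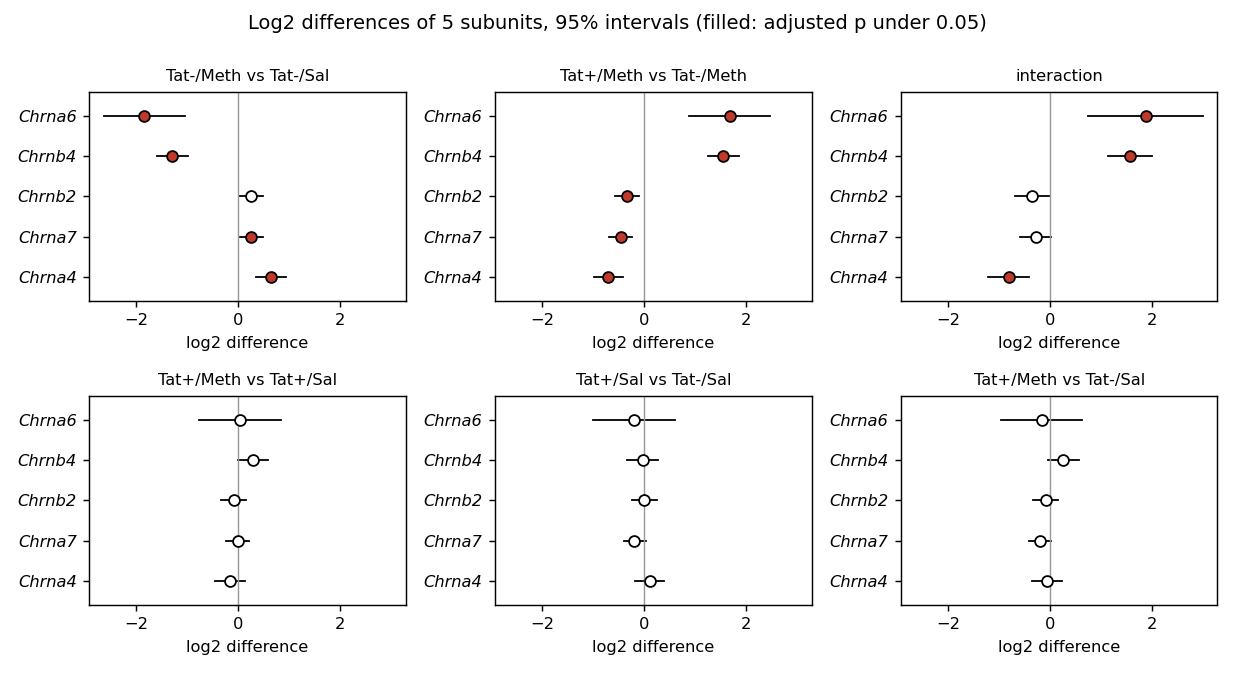
Fitted log2 differences (points) with 95% intervals (bars) of the 5 tested subunits other than Chrna2 in each comparison; the interaction is the effect of Meth under Tat+ minus its effect under Tat-, and filled points passed at an adjusted p under 0.05. The filled points are all in panels that use the Tat-/Meth arrays, 4 in Tat-/Meth vs Tat-/Sal, 5 in Tat+/Meth vs Tat-/Meth and 3 in the interaction. Without scaling between arrays the points of Chrna7 and Chrnb2 change sign in the interaction and in Tat-/Meth vs Tat-/Sal, and so does that of Chrnb2 for Tat+/Meth less Tat-/Meth.

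Genes that make, move and break down acetylcholine were tested beside the receptors, and 2 of 7 passed in Tat-/Meth vs Tat-/Sal, in opposite directions, against 50.3% of all probes. Slc5a7, the choline transporter that feeds synthesis, rose by 0.63 ± 0.12 SE (adjusted p = 0.000208), with arrays at 11.31 to 11.75 in Tat-/Sal and at 11.88 to 12.4 in Tat-/Meth. Chat, the enzyme that makes acetylcholine, fell by 0.45 ± 0.12 (adjusted p = 0.00409), with arrays at 11.89 to 12.24 and 11.46 to 11.91. Against Tat-/Meth, Tat+/Meth differed by -0.74 for Slc5a7 (adjusted p = 3.71e-05) and 0.53 for Chat (adjusted p = 0.00108), and the interactions were -0.62 (adjusted p = 0.00593) and 0.57 (adjusted p = 0.0122). Both kept these directions under each scaling tried, but with median scaling Chat passed in none of the 3 comparisons (-0.33 against Tat-/Sal, adjusted p = 0.103), and without scaling the difference of Slc5a7 from Tat-/Sal (0.21, adjusted p = 0.295) and its interaction (-0.14, adjusted p = 0.644) did not pass. Colq, which anchors acetylcholinesterase, differed by -0.35 (adjusted p = 0.0823). It did not pass in limma with quantile or median scaling either (-0.28 and -0.23, adjusted p = 0.146 and 0.359). Without scaling it passed at -0.77 (adjusted p = 0.00171), and Tat+/Meth less Tat-/Meth passed at 0.48 (adjusted p = 0.0428), beside 0.14 with scaling (adjusted p = 0.489). The median difference of the 7 genes was -0.08, beside 0.1 over all probes.

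Of 9 receptor chaperones and Ly6 prototoxins, proteins that aid the assembly of nicotinic receptors or bind them at the membrane, 2 passed as higher in Tat-/Meth with scaling to the 75th percentile, against 28.1% of all probes, and the list median was 0.18. Tmem35a, the chaperone NACHO, differed by 0.25 (adjusted p = 0.0426) and Unc50, a Golgi protein, by 0.21 (adjusted p = 0.0327). Neither direction held without scaling, at -0.17 and -0.21. Neither call held with median scaling (adjusted p = 0.15 and 0.154), and that of Tmem35a did not hold with quantile normalization (adjusted p = 0.0755). Tat+/Meth less Tat-/Meth passed at -0.49 for Tmem35a (adjusted p = 0.000428) and -0.31 for Unc50 (adjusted p = 0.00289), and was -0.16 for Tmem35a and 0.03 for Unc50 without scaling. Ric3, a further chaperone, differed by 0.27 from Tat-/Sal (adjusted p = 0.0939). The interaction passed for Tmem35a at -0.47 (adjusted p = 0.0129) and for Lynx1, a prototoxin that dampens receptor activity, at -0.53 (adjusted p = 0.0117), and was 0.01 and -0.04 without scaling. With median scaling that of Tmem35a did not pass (adjusted p = 0.0783). Lynx1 was also the gene of the list nearest to the threshold in the comparisons without Tat-/Meth, at 0.37 in Tat+/Sal vs Tat-/Sal (adjusted p = 0.102).

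Of the 5 muscarinic receptors, 4 were tested and 1 passed in Tat-/Meth vs Tat-/Sal, against 50.3% of all probes. Chrm4, the inhibitory muscarinic receptor of striatal projection neurons, fell by 0.63 ± 0.11 in Tat-/Meth (adjusted p = 0.000118), with arrays at 7.7 to 7.94 in Tat-/Sal and at 6.96 to 7.67 in Tat-/Meth. Tat+/Meth was higher by 0.77 (adjusted p = 1.27e-05), and the interaction was 0.66 (adjusted p = 0.00271), which did not pass with median scaling (0.43, adjusted p = 0.0856). The decrease of Chrm4 was seen under each scaling tried, from -0.51 to -1.05. The list median was 0.05. In the comparisons without Tat-/Meth, 0 genes of these 3 lists passed.

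Markers of other cell types were read on the same arrays. Each sum below is the log2 of the summed signals of a list, so the brightest markers weigh most and a change of a dimmer marker can go unseen. All 8 markers of striatal medium spiny neurons were well above background on every array, and their sum was 19.74 to 19.83 in Tat-/Meth, 19.8 to 20.04 in Tat-/Sal, 19.95 to 20.13 in Tat+/Sal and 19.8 to 20.03 in Tat+/Meth. Over all probes 50.3% passed in Tat-/Meth vs Tat-/Sal (22.2% lower and 28.1% higher), and each count of markers given here is to be read beside that share. Of the 8, 2 passed in Tat-/Meth vs Tat-/Sal, both lower: Penk, which encodes enkephalin, at -0.3 (adjusted p = 0.00038) and Rgs9, a regulator of G-protein signalling, at -0.24 (adjusted p = 0.00349). With quantile normalization these were -0.01 and -0.04 and neither passed (adjusted p = 0.893 and 0.585). All 4 markers of cholinergic neurons were well above background too, with sums of 13.53 to 13.79 in Tat-/Meth and 13.37 to 13.7 in Tat-/Sal, as were the 3 markers each of oligodendrocytes, astrocytes and microglia. The astrocyte sum was 14.64 to 14.97 in Tat-/Meth and 14.46 to 14.64 in Tat-/Sal, and 1 of its 3 markers, the glutamate transporter gene Slc1a3, passed at 0.31 (adjusted p = 0.0056), or -0.12 without scaling. The microglia sum was 15.32 to 15.42 in Tat-/Meth and 15.32 to 15.5 in Tat-/Sal, and 1 of its 3 markers, the receptor gene P2ry12, passed at -0.35 (adjusted p = 0.0128), but not with median scaling (-0.23, adjusted p = 0.343). Of the 3 oligodendrocyte markers 0 passed in limma (smallest adjusted p = 0.0529). Beside Chrna2, the sum of 4 somatostatin interneuron markers, of which Elfn1 was not detected, was 15.8 to 16.1 in Tat-/Meth and 15.51 to 15.7 in Tat-/Sal, with 15.78 to 16.01 in Tat+/Sal and 15.64 to 15.99 in Tat+/Meth. Sst, which encodes somatostatin, differed between Tat-/Meth and its saline group by 0.34 (adjusted p = 0.00154), or by -0.08 without scaling, and did not pass with median scaling (adjusted p = 0.0578). Beside Chrnb4, the medial habenula sum was 9.95 to 10.65 in Tat-/Meth and 9.81 to 10.51 in Tat-/Sal, and its marker Gpr151 was detected on 0 or 1 array of each group. The choroid plexus sum ran from 8.96 to 13.49 between single arrays, and the red blood cell sum, from 1 probe, from 14.19 to 16.49. The cortex sum was 10.94 to 11.21 in Tat-/Meth and 10.97 to 11.8 in Tat-/Sal. The median difference of its 4 tested markers was -0.74, and 0 of them passed in limma (smallest adjusted p = 0.231). This was not particular to Tat-/Meth: against Tat-/Sal the median was -0.81 in Tat+/Sal and -0.97 in Tat+/Meth, with 0 passing in each. The hippocampus sum was 14.63 to 14.97 in Tat-/Meth and 14.48 to 15.07 in Tat-/Sal. Of its 4 markers 3 were tested and 1 passed. Wfs1 and Zbtb20 did not pass, with means of 14.11 and 13.48 in Tat-/Meth beside 14.02 and 13.36 in Tat-/Sal. Neurod1 was well above background on 0 arrays of each group. The marker that passed, Prox1, a transcription factor of dentate granule cells, rose in Tat-/Meth: its arrays read 6.76 to 7.32 in Tat-/Meth and 5.84 to 6.3 in Tat-/Sal, a difference of 0.81 ± 0.15 SE (adjusted p = 0.000282). The interaction of Prox1 was -0.9 (adjusted p = 0.00332). Without scaling both kept their direction and neither passed (0.39 and -0.42, adjusted p = 0.0895 and 0.209). The part of these cell types in the subunit differences was not tested.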

How the data were processed

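Gene expression was measured in 20 mouse brain samples on single-colour Agilent arrays. Per the file headers, the deposited values are spot intensities from Agilent Feature Extraction 10.7.3.1, with background subtracted by the authors' software and no scaling between arrays. The headers name mm9. The study's methods name another dye, scanner and image software than the labels and headers do. A log2 table deposited by the authors for the same arrays was read as an alternative. The number of arrays limits the precision. The p-values of limma rest on the spread between the 5 mice within each group, pooled over all groups. No other group shared the slide of the Tat-/Meth arrays, so these p-values cannot part a shift of that slide from a group difference.

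Outlier spots were left out (4278 in all), spots of a probe averaged on the log2 scale, and arrays shifted to the same 75th percentile, their mean over the arrays. Of 55681 probes, 27656 matched a gene symbol through the accession in RefSeq's gene table. The brightest probe stood for a gene. Groups came from the sample titles. The test was limma 3.58.1 in R 4.3.3, with 1 mean per group and each probe as a row, over the 31516 probes with a mean of at least 6 in 1 or more groups and at least 3 values in every group. It was tested on simulated data. The members and lists were chosen with earlier results of these data known. Named were all subunit genes, the 5 genes closest to Chrna2 and, from each other list, up to 3 genes with the smallest adjusted p in Tat-/Meth vs Tat-/Sal or in the comparisons without Tat-/Meth. Cell type markers were named because they passed in Tat-/Meth vs Tat-/Sal, went undetected or stood beside Prox1 in its list. Alternatives covered scaling, background, filter, probes per gene, test, threshold, slide, replicate block and each array left out. No probe sequences were used. Promoters came from a RefSeq table of GRCm38.p6, and no coordinates were converted between builds.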

Additional observations from a re-analysis of the deposited data

Results flagged for a closer look

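In 3 of 40 groups of 5 values of the subunit genes, 1 array stood apart from the other 4 by Dixon's test, which chance does in about 1 of 20 groups. Chrna3 read 5.73 on Tat-/Meth array 5, with the next array at 3.69, and Chrnb3 read 4.92 on Tat+/Sal array 4, with the next at 3.29. Neither probe was well above background on these arrays. Chrna7 read 8.47 on Tat-/Sal array 5, with the next at 8.21.

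The Meth effect differed between Tat+ and Tat- mice in limma for 3 of the 5 tested subunits other than Chrna2, against 37% of all probes. The difference of effects was -0.81 for Chrna4, 1.88 for Chrna6 and 1.58 for Chrnb4. Each rests on the Tat-/Meth arrays, and that group cannot be told apart from its slide. In limma Chrna4 did not pass without scaling between arrays (-0.32, adjusted p = 0.214), nor did Chrna6 with normexp (0.54, adjusted p = 0.0756).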

How the results depend on the processing

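The number of subunits that passed in Tat-/Meth vs Tat-/Sal (4) was 2 without scaling between arrays, 8 with the normexp background correction, under which probes below background also entered the fit and Chrna3, Chrna5, Chrna10 and Chrnb3 were among the 8, 2 when a change above 2-fold was also asked and 1 when 3-fold and an adjusted p under 0.01 were asked. In Tat+/Meth vs Tat-/Meth (5) it was 2 without scaling, 2 with the 2-fold limit and 1 with the stricter limits, under which the interaction count (3) was 0. The unadjusted t-test gave 1 in Tat+/Meth vs Tat-/Sal (0). The cause of the change with scaling was not tested. Leaving out 1 array gave counts of 3 to 5, 4 to 5 and 3 where Tat-/Meth is compared and 0 elsewhere. With the replicate number as a block the counts were 4, 5 and 3, and 0 elsewhere, and no call changed. Same-numbered arrays deviated together with correlations of -0.14 to 0.31, so the numbers were not taken as pairs.

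Of 12 single differences past the test, 2 changed sign under an alternative, both without scaling: Chrna7 (-0.16 for Tat-/Meth less Tat-/Sal) and Chrnb2 (0.01 for Tat+/Meth less Tat-/Meth). The interaction of Chrna7 passed with quantile normalization (-0.42). The differences that did not pass changed sign as follows. Without scaling, Chrnb2 was -0.17 for Tat-/Meth less Tat-/Sal, the interaction was 0.21 for Chrna7 and 0.15 for Chrnb2, Chrna7 was 0.05 in Tat+/Meth vs Tat+/Sal, and Chrna4 was -0.04 and Chrnb2 -0.14 for Tat+/Sal less Tat-/Sal. In Tat+/Meth vs Tat+/Sal, Chrna6 was -0.06 with quantile normalization, -0.07 with median scaling, -0.01 with normexp, -0.001 with the deposited log2 table and -0.02 with slide as a fixed block and on slide 3 alone. There Chrna2 was -0.09 with median scaling and -0.007 with slide as a random block, and Chrnb4 was -0.02 with slide as a fixed block and on slide 3 alone. In Tat+/Sal vs Tat-/Sal, Chrnb4 was 0.02 with quantile normalization and with normexp, 0.05 with median scaling and 0.49 with slide as a fixed block, and Chrnb2 was -0.01 with normexp, -0.008 with the deposited log2 table and -0.03 with slide as a random block. In Tat+/Meth vs Tat-/Sal, Chrna4 was 0.07 with normexp and 1e-04 with slide as a fixed block and on slide 2 alone, and Chrnb2 was 0.03 with both slide settings.

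Leaving out 1 array at a time crossed 0 for differences near it: in Tat+/Meth vs Tat+/Sal -0.16 to 0.27 for Chrna2, -0.06 to 0.22 for Chrna6 and -0.06 to 0.07 for Chrna7, in Tat+/Sal vs Tat-/Sal -0.002 to 0.18 for Chrna4, -0.04 to 0.07 for Chrnb2 and -0.08 to 0.04 for Chrnb4, and in Tat+/Meth vs Tat-/Sal -0.16 to 0.05 for Chrna4. No slide adjustment could be made for comparisons with Tat-/Meth, which had slide 1 to itself. The fit with slide as a random block (correlation -0.0586) cannot part that group from its slide either.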
